A study of Mus musculus with 12 samples.

Results

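The renin-angiotensin genes described here are the 8 rows of the deposited expression table with the symbols Ren1, Agt, Ace, Agtr1a, Mme, Enpep, Atp6ap2 and Mas1, of 21004 genes in all. All 8 were among the 12281 genes with at least 1 FPKM in at least 3 libraries, which are the genes tested. FPKM is a fragment count scaled to the length of the transcript and to all fragments mapped in the library. RNA was sequenced from kidneys of ICR mice, an outbred strain, aged 8 weeks. The 12 libraries form 4 groups of 3: control; busulfan, an alkylating drug that crosslinks DNA; busulfan together with L.J. at 10 mg/kg; and L.J. at 10 mg/kg alone. The series title asks about a rescue by L.J. of kidney damage from busulfan. The sample titles write Lu where the descriptions write L.J., the design text speaks of FMT, and none of these terms is explained, so what was given is uncertain. Neither sex, nor a busulfan dose, nor a time after treatment is stated in the labels. Since the labels do not state that each library is a mouse of its own, a p-value here reflects library-to-library spread, part of which may be technical.

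The renin-angiotensin system sets blood pressure and salt balance through a chain of peptides. Renin, released from juxtaglomerular cells at the entrance of the glomerulus, cuts angiotensinogen to angiotensin I, and angiotensin-converting enzyme trims that to angiotensin II, which acts on the type 1 receptor in vessels and tubules. Other peptidases of the proximal tubule brush border break the peptides down or turn them into angiotensin (1-7), for which the Mas receptor has been described as a receptor. The kidney holds every step of this chain, and its tubules also make angiotensinogen and converting enzyme themselves.

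The promoters of Ren1, Agt and Ace are shown because these genes start the chain and results below turn on them. Each is the stretch of 250 bases before the RefSeq start site in GRCm38.p6, written 5′ to 3′ on the strand of the gene. Ren1 lies at chr1:133350424-133350673 on the plus strand, Agt at chr8:124569707-124569956 on the minus strand and Ace at chr11:105967698-105967947 on the plus strand. For Ace the RefSeq table holds a second window, at chr11:105974939-105975188, which has no match to the motifs searched and is not shown. Capitals mark matches on either strand to the TATA box TATAAA or the GC box GGGCGG.
Ren1: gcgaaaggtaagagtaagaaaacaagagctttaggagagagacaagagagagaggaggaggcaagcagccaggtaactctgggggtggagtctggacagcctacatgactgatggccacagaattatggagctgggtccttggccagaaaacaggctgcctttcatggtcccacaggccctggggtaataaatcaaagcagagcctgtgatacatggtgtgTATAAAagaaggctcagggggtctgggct
Agt: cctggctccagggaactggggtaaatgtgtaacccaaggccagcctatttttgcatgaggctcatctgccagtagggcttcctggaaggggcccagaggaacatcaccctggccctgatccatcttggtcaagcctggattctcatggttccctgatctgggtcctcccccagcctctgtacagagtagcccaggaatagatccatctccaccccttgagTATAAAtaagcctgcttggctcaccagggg
Ace: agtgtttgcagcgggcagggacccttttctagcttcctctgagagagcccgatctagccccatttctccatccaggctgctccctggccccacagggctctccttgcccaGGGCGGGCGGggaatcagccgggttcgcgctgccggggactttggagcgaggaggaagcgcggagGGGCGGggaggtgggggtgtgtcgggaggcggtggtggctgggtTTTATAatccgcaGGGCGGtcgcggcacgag
Ren1 held TATAAA 29 to 24 bases before its start. Agt held TATAAA 30 to 25 bases before its start. Ace held TATAAA on the opposite strand, 31 to 26 bases before its start, and 4 matches to GGGCGG, of which the 2 farthest from the start overlap. Of 32851 promoter windows of this length, 12.4% held TATAAA and 32.7% held GGGCGG. The cyclic AMP response element TGACGTCA and the E-box CACGTG were also searched, on both strands. They had no match in these 3 windows, and 1.55% and 6.02% of all windows held them. A match is a string of letters and does not show binding.

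Busulfan 3 stood apart from busulfan 1 and 2, which touches most of the values that follow. It lay with the control libraries on the main axis of variation, and whether its label is right could not be settled from the table, so each busulfan mean and each fit without it carries that doubt. On the first principal component busulfan 1 and busulfan 2 scored -40.4 and -47.3, busulfan 3 scored 10.5 and the other 9 libraries between 1.9 and 16.9. In busulfan 3 the deviation of genes from their mean also followed transcript length, with a Spearman correlation across genes of -0.507 where the other libraries had -0.066 to 0.299, and GC content, with 0.355 where they had -0.291 to 0.135. For Ren1, Agt, Ace, Mas1, Mme and Atp6ap2, tests without that library are given as well. Markers of the labelled tissue were present, with Lrp2 of the proximal tubule at 144 to 234 FPKM over all 12 libraries. FPKM sums per library ran from 481937 to 541844, and the absolute depth is unknown.

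In control kidneys the order of the mean levels, which FPKM allows because it is per length, was Ace, Enpep, Atp6ap2, Ren1, Mme, Agtr1a, Agt and Mas1. Ace led at 97.3 ± 10.0 FPKM (mean ± SD, n = 3, as below). Enpep at 47.0 ± 3.67 and Atp6ap2 at 46.6 ± 0.696 overlapped in their control values and could not be ordered. Mme at 32.0 ± 3.39 and Agtr1a at 27.9 ± 3.47 could not be ordered either. The other neighbours in that order did not overlap in control, although Ren1 and Atp6ap2 changed places in 5 of the 12 libraries. Mas1 was the lowest at 1.77 ± 0.321 FPKM. The near-identical second renin gene of some mouse strains, Ren2, was listed at 0 in 11 libraries and at 0.06 FPKM in busulfan plus L.J. 2. Reads shared between the copies could not be checked from this table.

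**Figure D1:**
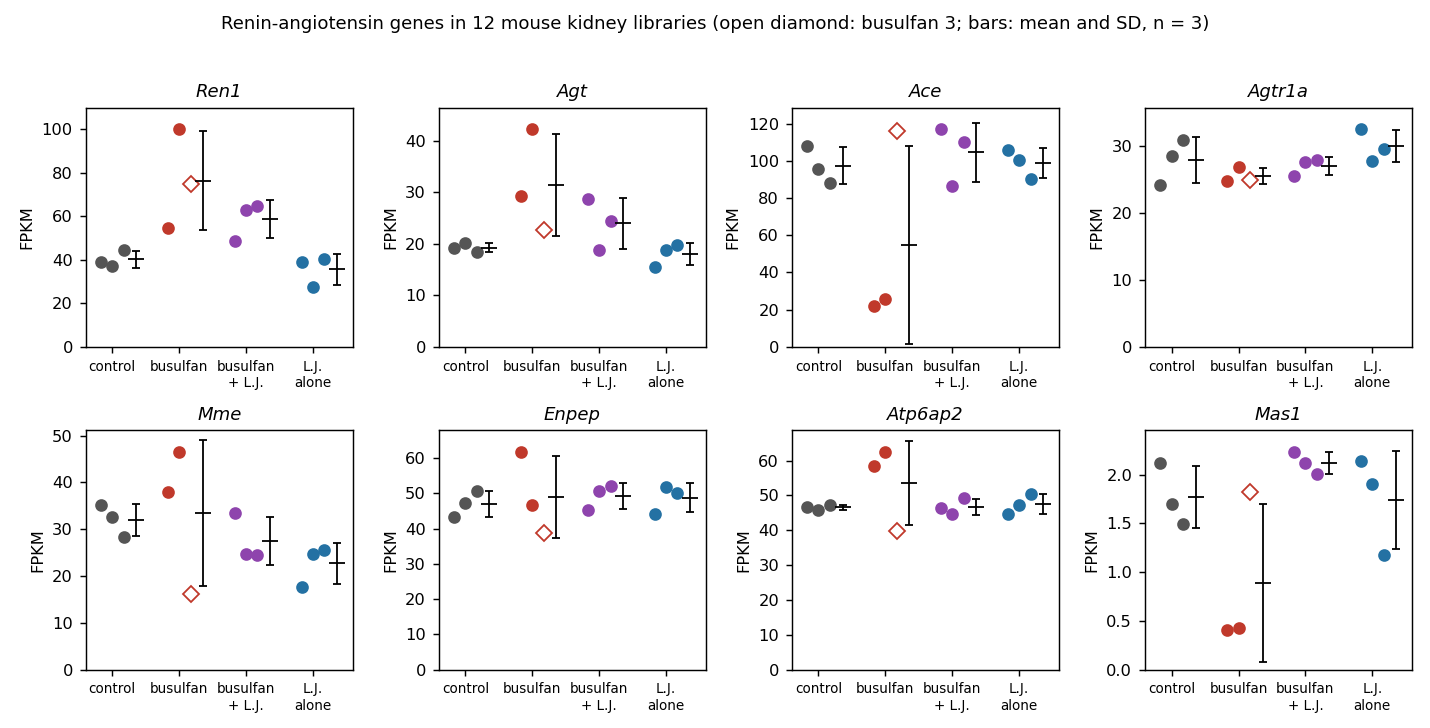
FPKM of the 8 genes (vertical axes, each from 0) by group, 1 point per library, with the mean and SD of the 3 libraries and an open diamond for busulfan 3. All 3 busulfan points of Ren1 lie above every control point, while the busulfan points of Ace and Mas1 split into 2 low libraries and busulfan 3.

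Renin had its highest values in the busulfan kidneys. Ren1 measured 38.86, 37.13 and 44.78 FPKM in control 1 to 3 and 54.7, 100.06 and 74.7 FPKM in busulfan 1 to 3. It measured 48.88, 62.84 and 64.85 FPKM in busulfan plus L.J. 1 to 3 and 39, 27.41 and 40.65 FPKM in L.J. alone 1 to 3. Every library with busulfan lay above every library without it, and busulfan 3 sat between the other 2 of its group. The group means were 40.3 ± 4.01 in control, 76.5 ± 22.7 with busulfan and 58.9 ± 8.7 with busulfan plus L.J.

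Busulfan against control gave Ren1 a log2 difference of 0.87 (SE 0.209), a ratio of 1.83 on the log2(FPKM + 1) scale. It missed the threshold of 0.05 (limma adjusted p = 0.0576, unadjusted p = 0.00143). In this comparison 1.44% of tested genes were called, meaning that their adjusted p was under 0.05, 0.725% higher and 0.717% lower, and 0 of the 8 members were. With busulfan 3 left out the difference was again 0.87 (SE 0.240), at an adjusted p of 0.0205, where 32.5% of all tested genes were called. Leaving out busulfan 2 gave 0.66 and an adjusted p of 0.191, and leaving out busulfan 1 gave 1.09 and an adjusted p of 0.122. Of all tested genes 14.7% had 3 busulfan libraries above the 3 control libraries, as Ren1 and Agt did, so that separation is common here. Downward separation was found for 7.33%, and for 0 of the members.

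Kidneys given busulfan plus L.J. also separated from control in Ren1. The log2 difference was 0.53 (SE 0.209), with an adjusted p of 0.9997 and an unadjusted p of 0.0268. In this comparison 0.00814% of tested genes were called, while 5.63% had no overlap in the higher and 4.46% in the lower direction. Between busulfan plus L.J. and busulfan alone the log2 difference of Ren1 was -0.34 (SE 0.209, adjusted p = 0.343), and the groups overlapped. In that comparison 3.24% of tested genes were called, 1.18% higher and 2.06% lower, and 0 of the 8 members. The interaction, which asks whether the busulfan difference was the same with and without L.J., gave Ren1 -0.16 (SE 0.296, adjusted p = 0.879), where 0.0163% of tested genes were called. A difference between these effects was thus not detectable with 3 libraries a group.

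Averaged over both pairs of groups, the 6 libraries with busulfan exceeded the 6 without it by 0.79 (SE 0.148, adjusted p = 0.221). This average was added after the Ren1 values had been seen, so its separation is a description. No tested gene was called in it (0%; 1624 had an unadjusted p under 0.05). Complete separation upward was found for 0.334% of tested genes, and downward for 0.0570%. Ren1 was the fifth of the separated genes by size of difference. With busulfan 3 left out the average was 0.79 at an adjusted p of 0.00901, with 20.5% of tested genes called, 15.6% higher and 4.89% lower.

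Akr1b7, an aldo-keto reductase made in renin cells, was also higher in every library with busulfan than in every library without it, at a low level. It measured 0.88, 1.37 and 1.4 FPKM in control, 1.41, 2.32 and 1.83 with busulfan, 2.02, 1.89 and 1.84 with busulfan plus L.J., and 0.96, 1.3 and 1.16 with L.J. alone. Its lowest busulfan value and its highest control value differ by 0.01 FPKM, the last decimal that the table holds. The log2 difference between busulfan and control was 0.36 (SE 0.148, adjusted p = 0.180). Of 23 genes of renin cells and renin release, Akr1b7 among them, 17 were tested and 0 were called in this comparison. Their median difference was 0.18, against 0.08 over all tested genes. By library, the median of the 17 against the control mean was 0.26, 0.41 and -0.16 in busulfan 1 to 3, so the list did not share the rise of Ren1 in busulfan 3. Gja4, a gap junction gene of vessels, stood at 0.48 (adjusted p = 0.156), Casr, the calcium-sensing receptor, at 0.62 (adjusted p = 0.190) and Adcy6, an adenylyl cyclase, at 0.33 (adjusted p = 0.307). In busulfan 3, Gja4, Casr and Adcy6 stood at 1.15, 0.936 and 0.853 of the control mean. Without busulfan 3, 7 of the 17 rose and 0 fell, where 24.4% of tested genes rose.

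**Figure D2:**
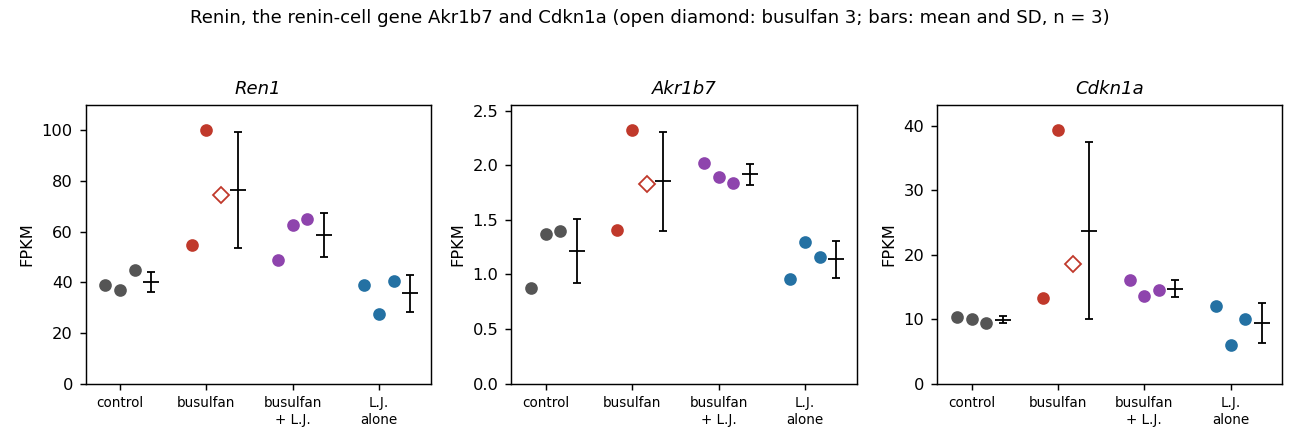
FPKM (vertical axes, from 0) of Ren1, Akr1b7 and Cdkn1a by group, 1 point per library, with mean and SD (n = 3) and an open diamond for busulfan 3. For each gene all 6 libraries given busulfan lie above the 6 without it, with busulfan 2 the highest.

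Renin is made by few cells, and in whole kidney fewer or more cells of a type cannot be told apart from less or more RNA per cell. Markers of neighbouring cells overlapped between control and busulfan. The summed FPKM of 9 smooth muscle and pericyte markers ran from 39.1 to 46.7 in control, from 44.3 to 65.3 with busulfan, from 35.2 to 70.0 with busulfan plus L.J. and from 36.3 to 49.9 with L.J. alone. The podocyte markers summed to 87.5 to 111.8 in control, and to 144.2, 138.0 and 78.0 in busulfan 1 to 3. They summed to 84.4 to 100.3 with busulfan plus L.J. and 60.1 to 114.5 with L.J. alone. The endothelial markers summed to 196.6 to 245.4 in control, and to 163.7, 197.4 and 234.6 in busulfan 1 to 3. The mesangial and stromal markers summed to 46.8 to 62.4 in control and 54.2 to 113.5 with busulfan. Their part in the Ren1 values was not tested.

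The substrate of renin followed a similar but looser pattern. Agt measured 19.18, 20.25 and 18.44 FPKM in control and 29.32, 42.22 and 22.65 with busulfan. It measured 28.75, 18.74 and 24.37 with busulfan plus L.J., and 15.51, 18.84 and 19.7 with L.J. alone. All 3 busulfan libraries lay above all control libraries, with busulfan 3 the nearest to control, while busulfan plus L.J. 2 lay within the control range. The log2 difference between busulfan and control was 0.63 (SE 0.201, adjusted p = 0.107), from 19.3 ± 0.91 to 31.4 ± 9.95 FPKM. Without busulfan 3 it was 0.84 at an adjusted p of 0.00691.

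Liver makes most of the body's angiotensinogen, so liver transcripts in a kidney sample matter for Agt. The 13 hepatocyte markers summed to 45.5 to 122.2 FPKM in control and 45.6 to 98.8 with busulfan, but to 11.6 to 19.2 with busulfan plus L.J. and 8.1 to 18.9 with L.J. alone. Of the 11 tested, 9 fell when L.J. was added to busulfan, where 2.06% of tested genes fell. Their part in the Agt values was not tested.

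Converting enzyme was low in 2 busulfan libraries and not in the other. Ace measured 22.24 FPKM in busulfan 1 and 25.6 in busulfan 2, which are 0.229 and 0.263 of the control mean, but 116.16 in busulfan 3. The control libraries measured 108.04, 95.73 and 88.21 FPKM, those with busulfan plus L.J. 116.92, 86.48 and 110.22, and those with L.J. alone 105.64, 100.57 and 90.17. Outside busulfan 1 and 2, the 10 remaining libraries stayed between 86.48 and 116.92 FPKM.

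With a mean of 54.7 ± 53.3 FPKM in the busulfan group, the log2 difference of Ace from control was -1.23 (SE 0.457, adjusted p = 0.148). Between busulfan plus L.J. and busulfan it was 1.33 (SE 0.457, adjusted p = 0.115), and the interaction was 1.31 (SE 0.646, adjusted p = 0.462). None of these passed. Leaving out busulfan 3 turned all of them into calls: -1.98 against control (adjusted p = 2.2e-05), 2.07 for adding L.J. (adjusted p = 1.4e-05) and 2.05 for the interaction (adjusted p = 0.000353). That one library decides the Ace result, and the direction was the same either way. In these smaller fits 32.5%, 31.6% and 12.1% of tested genes were called, and 4.12% higher in the interaction.

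Genes of the kidney known to depend on androgen were low in the same libraries as Ace. The median log2 difference of 12 such genes from the control mean was -1.72 in busulfan 1, -1.98 in busulfan 2 and 0.21 in busulfan 3, and -0.14 to 0.36 in the 9 others. Kap, the kidney androgen-regulated protein gene, measured 10398 and 5031 FPKM in busulfan 1 and 2 and 50482 in busulfan 3, against a control mean of 42640 ± 9220. Of the 12 genes 0 were called between busulfan and control (median -1.24), and 1, Slc22a30, a gene of the organic ion transporter family, rose when L.J. was added (log2 difference 1.32, adjusted p = 0.0441). Without busulfan 3 all 12 fell against control, where 8.12% of tested genes fell. The sex of the mice is not stated, and the part of androgen in the Ace values was not tested.

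**Figure D3:**
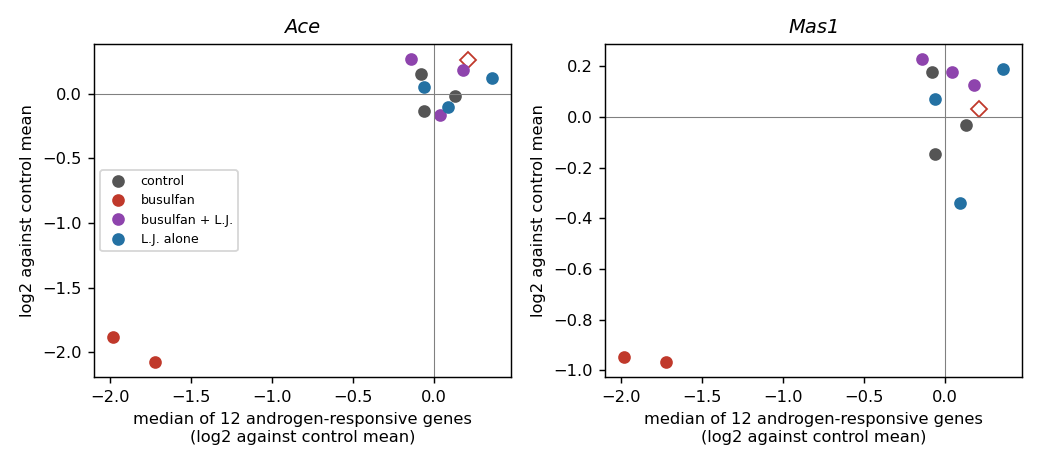
Log2 difference from the control mean of Ace and Mas1 (vertical axes) against the median difference of 12 androgen-responsive kidney genes (horizontal axes), 1 point per library, with an open diamond for busulfan 3. Busulfan 1 and 2 lie apart at the low end of the androgen median, low in Ace and Mas1, and busulfan 3 lies among the other groups.

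The Mas receptor moved with converting enzyme, at a much lower level. Mas1 measured 0.41 and 0.43 FPKM in busulfan 1 and 2, which are 0.232 and 0.243 of the control mean, and 1.82 in busulfan 3. Control libraries measured 2.12, 1.7 and 1.49 FPKM, busulfan plus L.J. libraries 2.23, 2.12 and 2.01, and L.J. alone 2.14, 1.9 and 1.18. The busulfan plus L.J. libraries all lay above the busulfan libraries, where 7.14% of tested genes did.

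On the log2(FPKM + 1) scale, which understates changes of low genes, the difference of Mas1 was -0.63 against control (SE 0.244, adjusted p = 0.163) and 0.81 for adding L.J. (SE 0.244, adjusted p = 0.0856). Without busulfan 3 these were -0.96 (adjusted p = 0.00199) and 1.14 (adjusted p = 0.00081), with an interaction of 1.16 (adjusted p = 0.00826). Over the 12 libraries the log2 values of Mas1 and Ace had a Pearson r of 0.95, and of 0.56 without busulfan 1 and 2, so much of the relation rests on those 2 libraries. Airn, a long antisense transcript, overlaps Mas1 on chromosome 17, and Gm11651 lies antisense to Ace. Neither is in the table and no strand setting is stated, so reads from these pairs cannot be told apart.

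The other peptidases among the 8 genes, Mme and Enpep, were not low in busulfan 1 and 2. Mme encodes neprilysin, which cuts angiotensin peptides and other small peptides at the brush border. It measured 35.15, 32.52 and 28.42 FPKM in control, 37.85, 46.46 and 16.17 with busulfan, 33.42, 24.63 and 24.59 with busulfan plus L.J., and 17.75, 24.8 and 25.52 with L.J. alone. The busulfan group thus held both the highest and the lowest of the 12 values. Mme has the longest transcript of the 8 genes, at 8039 bases, and its low value was in busulfan 3, the library in which long transcripts were low. The part of transcript length in that value was not tested beyond the correction given next.

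For Mme the log2 difference between busulfan and control was -0.06 (SE 0.305, adjusted p = 0.930), and it changed sign to 0.12 with a correction for length and GC content and to 0.38 without busulfan 3. Without that library, adding L.J. to busulfan gave -0.60 for Mme (adjusted p = 0.0276), where 23.6% of tested genes were called lower. All 3 libraries of L.J. alone lay below all control libraries in Mme, with a log2 difference of -0.49 (SE 0.305, adjusted p = 0.9988). In that comparison 8.22% of tested genes were separated downward and 4.74% upward, and 0 genes were called by limma, where 337 had an unadjusted p under 0.05.

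Enpep encodes aminopeptidase A, which turns angiotensin II into angiotensin III. It measured 43.31, 47.12 and 50.64 FPKM in control and 61.68, 46.68 and 38.68 with busulfan. The remaining 6 libraries lay between 44.09 and 52.15 FPKM. Busulfan 1 was the highest and busulfan 3 the lowest of all 12, and the group means of 47.0 ± 3.67 and 49.0 ± 11.7 differed by less than that spread (log2 difference 0.04, SE 0.145, adjusted p = 0.904).

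For the type 1 angiotensin receptor the groups overlapped in each of the 4 comparisons between groups. Agtr1a measured 24.15, 28.59 and 30.98 FPKM in control and 24.76, 26.97 and 24.93 with busulfan. It measured 25.52, 27.63 and 27.95 with busulfan plus L.J., and 32.53, 27.81 and 29.62 with L.J. alone. The log2 difference between busulfan and control was -0.12 (SE 0.0998, adjusted p = 0.509). The other angiotensin receptors were near the floor of the table, with Agtr1b at 0 to 0.07 FPKM and Agtr2 at 0 to 0.09. Mrgprd, a receptor of a further angiotensin peptide, was listed at 0 in all 12.

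Atp6ap2, the prorenin receptor and a partner of the vacuolar proton pump, measured 58.58 and 62.45 FPKM in busulfan 1 and 2 and 39.78 in busulfan 3. The 9 libraries of the other groups lay between 44.59 and 50.52 FPKM, so busulfan 1 and 2 were above all of them and busulfan 3 below all of them. The log2 difference from control was 0.17 (SE 0.138, adjusted p = 0.476), and 0.37 without busulfan 3 (adjusted p = 0.00482). Of 19 other subunits of the pump, Atp6v1f rose between control and busulfan (0.41, adjusted p = 0.0472) and the other 18 did not pass. Of all tested genes 0.725% rose. Atp6v1g3 stood at 2.38, 2.75 and 1.12 of the control mean in busulfan 1 to 3. Atp6v1b1 stood at 2.28, 2.36 and 0.982, and Atp6v0d2 at 2.05, 2.4 and 0.984. Atp6v0a2 went the other way, at 0.636, 0.648 and 0.925. The median log2 difference of the 19 from the control mean was 0.08, 0.06 and 0.08. When L.J. was added, Atp6v1g3, a subunit of acid-secreting cells, fell (-1.11, adjusted p = 0.0491), where 2.06% of tested genes fell.

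**Figure D4:**
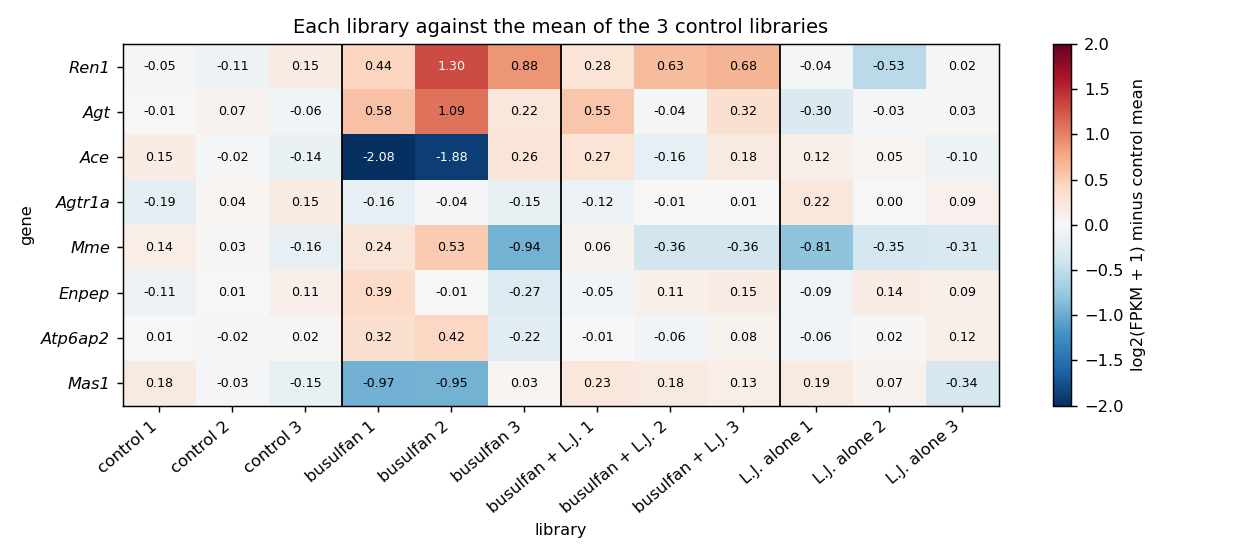
Difference of log2(FPKM + 1) from the mean of the 3 control libraries for the 8 genes (rows) in each of the 12 libraries (columns), on a colour scale centred on 0. The strongest colours are the low Ace values of busulfan 1 and 2, at -2.08 and -1.88, and the high Ren1 value of busulfan 2, at 1.30.

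Counted over the 8 genes, leaving out busulfan 3 called Ren1, Agt and Atp6ap2 higher and Ace and Mas1 lower against control. That is 5 of 8, where 32.5% of all tested genes were called, 24.4% higher and 8.12% lower. Adding L.J. to busulfan then called Ace and Mas1 higher and Agt, Mme and Atp6ap2 lower, where 7.98% of tested genes were called higher and 23.6% lower. The 2 comparisons share the same 2 busulfan libraries, so they are not separate evidence. Ren1 was not called in the latter. Its direction against the control mean was the same in all 3 busulfan libraries, as was that of Agt and that of Agtr1a.

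**Figure D5:**
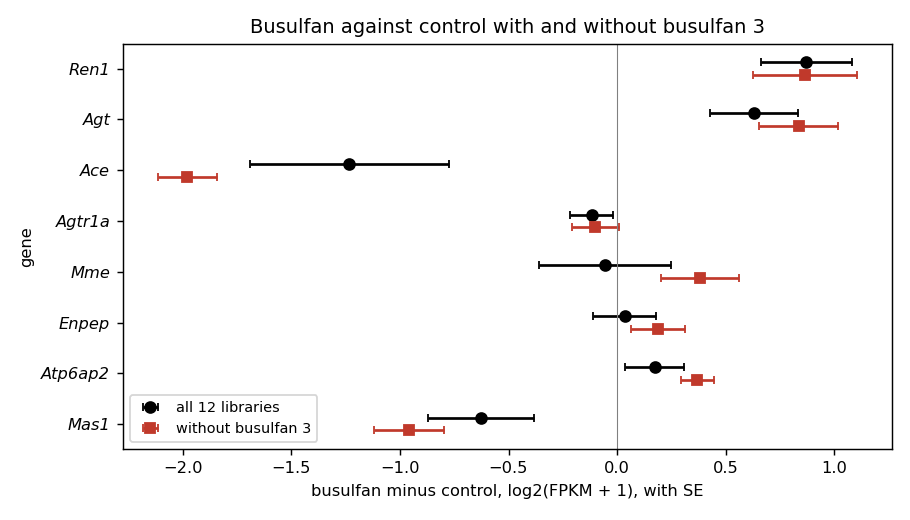
Log2 difference between busulfan and control for the 8 genes (horizontal axis, bars are SE) with all 3 busulfan libraries and without busulfan 3. The Ren1 estimate stays at 0.87, while that of Ace moves from -1.23 to -1.98 and that of Mas1 from -0.63 to -0.96.

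Further genes of the pathway gave few calls. Of 20 other renin-angiotensin genes 13 were tested, and 0 were called in either direction between busulfan and control (median log2 difference -0.08). The smallest p-values belonged to Nln, the peptidase neurolysin, at -0.25 (adjusted p = 0.142), and to Cltrn, the brush border protein collectrin, at -0.40 (adjusted p = 0.146). Cltrn measured 1547 ± 83.6 FPKM in control and 1187 ± 213 with busulfan. Without busulfan 3, 1 of the 13 rose and 3 fell, where 24.4% of tested genes rose and 8.12% fell. Anpep, aminopeptidase N, which turns angiotensin III into angiotensin IV, measured 73.64 and 55.17 FPKM in busulfan 1 and 2 and 119.36 in busulfan 3, against 107 ± 1.66 in control (adjusted p = 0.270).

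Aldosterone acts downstream of angiotensin II in the distal nephron, and some genes listed for its response were higher with busulfan. Of 16 genes of the mineralocorticoid response, 3 rose between control and busulfan and 0 fell, where 0.725% and 0.717% of tested genes did. Hsd11b2, which keeps glucocorticoids off the mineralocorticoid receptor, measured 56.25, 45.16 and 56.62 FPKM in control and 97.01, 102.57 and 70.21 with busulfan (0.75, SE 0.148, adjusted p = 0.0428). Scnn1a, a subunit of the epithelial sodium channel, measured 39.18, 37.75 and 44.49 in control and 82.89, 101.79 and 50.92 with busulfan (0.89, SE 0.193, adjusted p = 0.0492). Wnk4, a kinase that controls the thiazide-sensitive transporter, also rose (0.80, SE 0.161, adjusted p = 0.0428). In each of these genes busulfan 3 was above control but lower than its group mates.

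The 3 called genes fell when L.J. was added to busulfan, where 2.06% of tested genes fell. Their log2 differences were -0.88 for Hsd11b2 (adjusted p = 0.0320), -0.93 for Scnn1a (adjusted p = 0.0421) and -0.68 for Wnk4 (adjusted p = 0.0489). These comparisons share the busulfan libraries. The median of the list against the control mean was 0.84 in busulfan 1, 0.82 in busulfan 2 and 0.04 in busulfan 3. Without busulfan 3 all 16 rose against control, where 24.4% of tested genes rose, and without any other single library 0 to 2 of them did. The receptor gene Nr3c2 measured 4.17 and 5.14 FPKM in busulfan 1 and 2 and 1.82 in busulfan 3, against 2.53 ± 0.0929 in control, and Sgk1, a kinase induced by aldosterone, 35.86, 44.25 and 19.16 against 19.5 ± 3.57. Neither passed with all libraries. The genes of aldosterone synthesis, Cyp11b1 and Cyp11b2, were listed at 0 in all libraries. The 7 adrenal markers summed to 0.9 to 3.0 FPKM over the control and busulfan libraries. The part of aldosterone, of glucocorticoids or of the share of distal nephron cells in these values was not tested. In whole kidney these cannot be told apart.

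Signalling genes of the type 1 receptor held 1 call among 16 tested between busulfan and control. Of all tested genes 1.44% were called in that comparison, 0.717% of them lower. Arrb1, an arrestin that takes activated receptors off the membrane, measured 17.15, 15.03 and 17.09 FPKM in control and 8.39, 9.78 and 11.14 with busulfan, and fell (-0.70, SE 0.150, adjusted p = 0.0486). Rgs2, which damps signalling from the receptor's G protein, had a log2 difference of 1.24 (SE 0.351, adjusted p = 0.0829) and did not pass. Of the 8 kallikrein and kinin genes 4 were tested and 0 were called, with Kng2, a kininogen, at 0.68 (adjusted p = 0.162). Of 19 proximal tubule genes 0 were called between busulfan and control (median log2 difference -0.15). When L.J. was added to busulfan, Slc13a3, a dicarboxylate transporter, fell (-0.53, adjusted p = 0.0421), where 2.06% of tested genes fell. The median of the list went the other way in that comparison, at 0.33 against -0.09 over all tested genes.

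The genes whose log2 values were most like each member over the 12 libraries were taken by Pearson r among 11692 named genes, as a description. For Ren1 they were Cdkn1a, the cell cycle inhibitor p21, with an r of 0.918, and Exoc7 with 0.891. Cdkn1a measured 10.41, 10.05 and 9.37 FPKM in control, 13.33, 39.28 and 18.5 with busulfan, 16.1, 13.57 and 14.53 with busulfan plus L.J., and 12.04, 5.97 and 10.1 with L.J. alone. As for Ren1, busulfan 2 was the highest library and L.J. alone 2 the lowest. For Ace the nearest genes were Slc17a3, an organic anion transporter, with 0.987, and Hmox1, heme oxygenase, with 0.985. Hmox1 measured 9.87 and 10.18 FPKM in busulfan 1 and 2 and 27.1 to 37.97 in the other libraries. For Mas1 they were Tmprss9 with 0.97 and Gpr137b with 0.951, and for Agt Akt2 with 0.968 and Serpinb6a with 0.963. Atp6ap2 was nearest to Rnf13 with 0.98 and to Nr3c2 with 0.976, Mme to Zfp952 with 0.974 and Ctnnal1 with 0.973, Enpep to Nudt1 with 0.918 and Pdk2 with 0.907, and Agtr1a to Snx9 with 0.931 and Preb with 0.824. No p is given, since these genes were picked by r.

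In the GRCm38.p6 assembly Ren1 (Entrez gene 19701) lies on chromosome 1 from 133350674 to 133360320, Agt (11606) on chromosome 8 from 124556587 to 124569706 and Ace (11421) on chromosome 11 from 105967948 to 105989964. Agtr1a (11607) lies on chromosome 13 from 30336356 to 30382867, Mas1 (17171) on chromosome 17 from 12838841 to 12868150 and Atp6ap2 (70495) on chromosome X from 12587759 to 12617051. Mme (17380) and Enpep (13809) share chromosome 3, from 63295211 to 63383713 and from 129269177 to 129332749. RefSeq lists each of them as protein coding.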

How the data were processed

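RNA from frozen kidneys was extracted with Trizol and a column kit, then sequenced by a standard Illumina method, per the labels. Per the submitters' processing notes, Bowtie 0.12.2 and the mm10 build were used; the counter, annotation and strandedness were not given in the sources used here. A single table that the authors deposited holds FPKM values to 2 decimals for 21004 genes, per the file headers. Of the symbols, 26 stored as dates were restored by their Entrez identifiers, and 1 repeated symbol was dropped.

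Values were analysed as log2(FPKM + 1) in genes with at least 1 FPKM in at least 3 libraries. Limma 3.58.1 (R 4.3.3, trend option) fitted 1 mean per group to all 12 libraries, with two-sided tests and Benjamini-Hochberg adjustment over 12281 genes. FPKM values are not counts, so no count model was used. Length and GC content came from GENCODE M21 and covered 99% of tested genes; coordinates and promoters came from RefSeq GRCm38.p6. The method was tested on simulated data in which changed genes shifted equally in all 3 busulfan libraries. Those data held no library that stood apart as busulfan 3 does, so the test cannot speak to its effect on the calls.

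The members, the 16 gene lists and the tests were chosen with earlier results of these data known. Named genes were all members, up to 4 per list by smallest p, called genes, and the 2 most alike per member by Pearson r; a few more list genes were named after their values were seen, among them Anpep, Kap, Lrp2, Nr3c2 and Sgk1. Alternatives were quantile normalization, no filter, a pseudocount of 0.1, a replicate block, only the groups compared, a length and GC correction (natural splines, 5 degrees of freedom each) and each library left out in turn. The average over all busulfan libraries was chosen after seeing the data. Tables and plots used Python 3.11.15, pandas 2.3.3 and matplotlib 3.10.9.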

Additional observations from a re-analysis of the deposited data

How the results depend on the processing

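The number of genes called depended on the settings far more than the members' values did. Between busulfan and control it was 177, and it was 55 with no filter, 503 with quantile normalization, 11 with the replicate block, 0 with only the groups compared and 3 with the length and GC correction. For adding L.J. to busulfan it was 398, and 150, 656, 4, 2 and 0 in that order. For busulfan plus L.J. against control it was 1, and 0 with a pseudocount of 0.1, no filter, the replicate block or only the groups compared. For the interaction it was 2, and 0 with a pseudocount of 0.1, quantile normalization, the replicate block or the length and GC correction, and 1 with no filter. For the average over all busulfan libraries it was 0, and 1 with a pseudocount of 0.1. Leaving out 1 library gave 0 to 3989 calls between busulfan and control, 1 to 3880 for adding L.J., 0 to 1 for L.J. alone, 0 to 2 for busulfan plus L.J. against control, 0 to 1489 for the interaction and 0 to 2515 for the average; the highest of each, except L.J. alone, was without busulfan 3. The cause was not tested.

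No member was called under any setting that kept all 12 libraries. Ren1 between busulfan and control had a log2 difference of 0.66 to 1.09 with 1 library left out (adjusted p 0.0205 to 0.212), and 0.78 with the length and GC correction (adjusted p = 0.121). With all 12 libraries none of the differences that changed sign was called, while Mme on adding L.J., which changed sign with busulfan 2 left out, was called without busulfan 3. With quantile normalization Enpep between busulfan and control was -0.0015, Mas1 under L.J. alone 0.034, and in the interaction Agtr1a was 0.029 and Enpep 0.018. With the length and GC correction Mme between busulfan and control was 0.12 and Enpep on adding L.J. -0.020. With 1 library left out, Mme and Enpep ran from -0.35 to 0.38 and -0.14 to 0.19 between busulfan and control, and from -0.60 to 0.13 and -0.12 to 0.21 on adding L.J. Under L.J. alone Enpep ran from -0.0077 to 0.12, Mas1 from -0.13 to 0.13, Ace from -0.044 to 0.10 and Atp6ap2 from -0.016 to 0.069. Between busulfan plus L.J. and control Atp6ap2 ran from -0.035 to 0.035 and Agtr1a from -0.14 to 0.038. In the interaction Agtr1a ran from -0.10 to 0.070, Enpep from -0.17 to 0.16, Ren1 from -0.37 to 0.057 and Mme from -0.11 to 0.62. In the average over all busulfan libraries Enpep ran from -0.061 to 0.10 and Mme from -0.039 to 0.33.

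Libraries with the same number in different groups did not deviate together (correlations of -0.239 to 0.081 over 18 pairs, none above 0.1), so the replicate block rests on a number only. Fits with only the groups compared gave no value for the interaction and were not run for the average. FPKM keep no depth, so no counting interval can be given.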

Other observations

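Of the genes whose 6 libraries with busulfan all lay above the 6 without it, 4 had a larger average difference than Ren1, and they were named after their values were seen. They were Gstp3, a glutathione transferase, at 2.70 on the log2 scale, Phlda3, a p53 target, at 0.90, Cdkn1a, which is another p53 target, at 0.84, and Foxq1, a forkhead transcription factor gene, at 0.80. Their adjusted p-values ran from 0.221 to 0.278, so none was called. Gstp3 has near-identical neighbours in its family that can share reads.

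The ratio of Ren1 to Agt in FPKM, a balance of enzyme to substrate transcripts, lay between 1.83 and 2.43 in control, 1.87 and 3.3 with busulfan, 1.7 and 3.35 with busulfan plus L.J., and 1.45 and 2.51 with L.J. alone. The 4 groups overlapped.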
